A study of Mus musculus with 6 samples.

Results

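The endoplasmic reticulum (ER) chaperones and disulfide isomerases described here are 10 genes, Hspa5, Hsp90b1, Hyou1, Calr, Canx, Pdia3, Pdia4, Pdia6, Dnajb11 and Sdf2l1, found by gene symbol among the 16426 rows of the authors' deposited table. All 10 had a row, and all 10 were among the 14114 genes with an adjusted p-value under 1, the genes tested. The comparison is between liver RNA of 3 libraries called ly_A (set A) and 3 libraries called ly_B (set B). The labels describe 6 male C57/BL mice, 3 normal animals given saline and 3 animals given 20% carbon tetrachloride (CCl4), a liver toxin, for 10 weeks until fibrosis. No label ties either set to one of these groups, so every difference below is between the sets and none is stated as a response to CCl4. The 18 columns of single libraries match no labelled sample by name and were not used, so values per library, their spread and the read depth behind each gene are not given here. The sign of the deposited log2 fold change was taken from the name of the comparison, ly_A before ly_B, and no calculation here checked it. Negative values are therefore read as more RNA in set B, and every direction below rests on that reading.

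Hepatocytes secrete most plasma proteins, and these fold in the lumen of the ER. BiP, encoded by Hspa5, binds unfolded chains and works with J-domain partners and nucleotide exchange factors, while calreticulin and calnexin hold glycoproteins for the disulfide isomerase encoded by Pdia3. When unfolded protein accumulates, the sensors PERK, IRE1 and ATF6 start the unfolded protein response, and cleaved ATF6, with the CCAAT-binding factor NF-Y, activates many of these genes through the ER stress element of their promoters.

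The ER stress element is CCAAT, 9 bases of any kind, and CCACG. It was searched on both strands in RefSeq promoter windows of build GRCm38.p6, each of 300 bases, 250 before and 50 after a transcription start. These coordinates belong to another build than mm9, the build in the submitters' processing notes, and no mm9 coordinate is used. A window was matched by symbol for 9 of the 10 members, all but Hyou1. An exact element stood in 5 of the 9, Hspa5, Hsp90b1, Calr, Canx and Pdia6, and in 39 of all 32851 promoter windows (0.119%). The choice of the genes by name did not read these sequences. The element is already known from promoters of such genes, so its presence in the members is a description and no independent finding. Capitals mark the element, gap included, and each run is printed 5′ to 3′ on the strand of the gene.
Hspa5 (chr2:34772005-34772063, strand +): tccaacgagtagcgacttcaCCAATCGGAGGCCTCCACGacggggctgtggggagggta
Calr (chr8:84847055-84847113, strand -): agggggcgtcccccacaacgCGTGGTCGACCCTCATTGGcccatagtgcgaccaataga
Canx (chr11:50325780-50325838, strand -): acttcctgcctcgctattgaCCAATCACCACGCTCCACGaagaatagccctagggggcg
Pdia6 (chr12:17266471-17266529, strand +): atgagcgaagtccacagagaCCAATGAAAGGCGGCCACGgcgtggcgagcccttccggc
In Hspa5, Canx and Pdia6 the element read in the direction of the gene, and its first base lay 65, 145 and 98 bases before the start. In Calr it lay on the opposite strand, so that the capitals begin with the reverse complement of CCACG, 162 bases before the start.

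The promoter of Hsp90b1 held 2 exact elements, 1 in each direction, whose first bases lay 212 and 107 bases before the start. A further match on the opposite strand, with 1 mismatch among the 10 fixed letters, began 172 bases before the start. The 250 bases before the start are printed because no other member had more than 1 match.
Hsp90b1 (chr10:86705445-86705694, strand -): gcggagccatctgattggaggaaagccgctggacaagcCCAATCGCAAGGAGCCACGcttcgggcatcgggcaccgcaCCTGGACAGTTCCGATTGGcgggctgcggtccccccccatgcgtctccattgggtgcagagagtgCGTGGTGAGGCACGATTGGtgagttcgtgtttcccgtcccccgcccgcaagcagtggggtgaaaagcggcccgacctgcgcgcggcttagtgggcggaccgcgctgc

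When 1 mismatch in the 10 fixed letters was allowed, Pdia3 and Pdia4 also had a match, and 7 of the 9 members then had one. At this setting 494 of all windows (1.5%) held a match.
Pdia3 (chr2:121413864-121413900, strand +): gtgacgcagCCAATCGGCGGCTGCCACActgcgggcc
Pdia4 (chr6:47813582-47813640, strand -): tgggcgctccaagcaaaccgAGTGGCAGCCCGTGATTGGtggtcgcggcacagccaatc
The Pdia3 match began 29 bases before the start. The Pdia4 match was on the opposite strand and began 108 bases before the start. Dnajb11 held no such element but had an exact ER stress element II, which is ATTGG, 1 base of any kind, and CCACG, and which stood in 12 of all windows (0.0365%). Its first base was base 8 counted from the start, inside the transcribed part.
Dnajb11 (chr16:22857843-22857871, strand +): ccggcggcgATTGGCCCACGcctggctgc
Sdf2l1 had neither element in its window. The XBP1 site TGACGTGG, present in 0.676% of windows, and the cyclic AMP response element TGACGTCA, present in 1.79%, were found in none of the 9. A match is a sequence description and not a measured binding site.

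**Figure D1:**
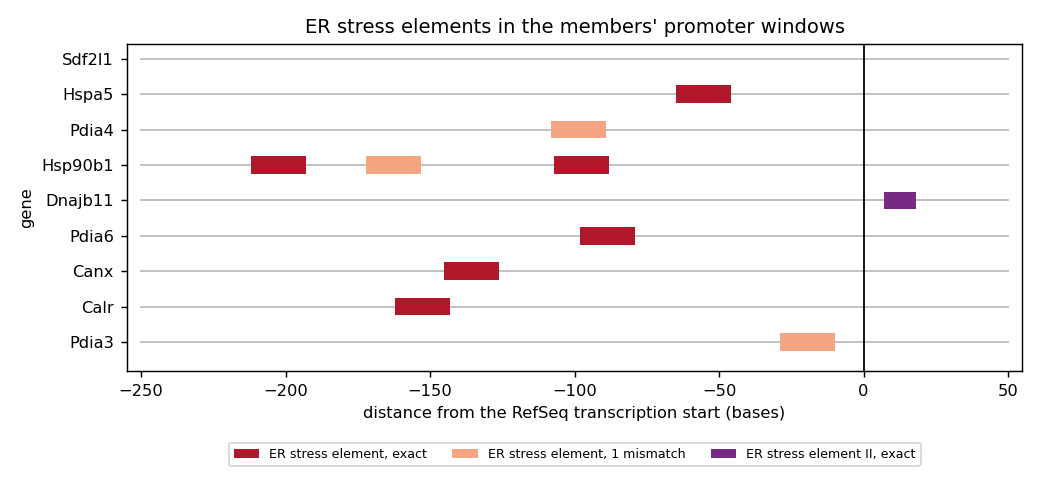
Position of ER stress element matches in the promoter windows of the 9 members with a RefSeq promoter, with the distance from the transcription start in bases on the horizontal axis and 1 gene per line, ordered by log2 fold change. Dark red bars are exact elements, light bars have 1 mismatch and the purple bar is element II. Hsp90b1 has 3 bars and Sdf2l1 none.

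In the authors' deposited table, all 10 members were higher in set B at an adjusted p under 0.05, where 17.7% of the genes tested were called in that direction and 18.1% in the other. The differences ran from 1.92-fold for Pdia3 to 5.49-fold for Sdf2l1, and the largest adjusted p was 0.000288, for Canx. The members' median log2 fold change was -1.32, and that of all genes tested was 0.07. The 7 members that were at least 2-fold higher in set B were Sdf2l1, Hyou1, Hspa5, Pdia4, Hsp90b1, Dnajb11 and Pdia6, and 7.85% of the genes tested passed both limits in that direction. At an adjusted p under 0.01 all 10 members were called, against 12.7% of the genes tested. The genes were chosen with earlier results of these data known, so these counts describe the members and are no independent evidence of their direction. In bulk liver RNA, more cells of a type and more RNA per cell cannot be told apart.

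**Figure D2:**
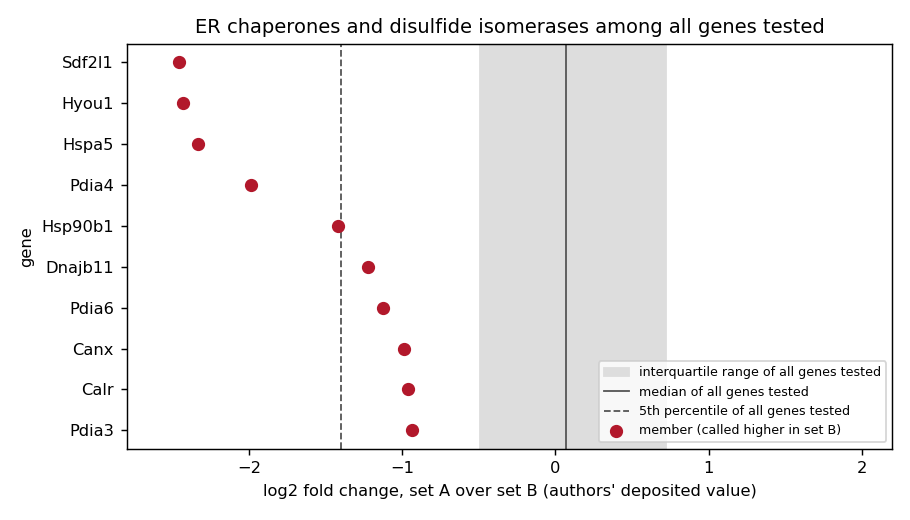
Deposited log2 fold change (ly_A over ly_B, horizontal axis) of the 10 members, 1 gene per line. The grey band is the interquartile range of all 14114 genes tested, from -0.49 to 0.72, and the dashed line is their 5th percentile, -1.40. All 10 members lie left of the band, and 5 of them lie left of the dashed line.

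The HSP70-type chaperones of the ER lumen were among the members with the largest differences. Hspa5, which encodes BiP, had 5.05-fold more RNA in set B (log2 -2.34, adjusted p = 3.5e-20) in the authors' deposited table. Of the 14114 genes tested, 238 (1.69%) had a log2 fold change as low or lower, and 63, Hspa5 included, had a p-value as small or smaller. Hyou1 encodes GRP170, a large HSP70 relative that is a chaperone and exchanges nucleotide on BiP, and its difference in the authors' deposited table was 5.39-fold (log2 -2.43, adjusted p = 4.81e-19). Hsp90b1 encodes GRP94, the HSP90 of the ER, and stood nearer to 0, with a difference of 2.67-fold (log2 -1.42, adjusted p = 1.06e-07) in the authors' deposited table. Standard errors were not used here, so whether Hsp90b1 differed less than Hspa5 was not tested, and the same holds for every order among members.

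Both BiP co-chaperones had more RNA in set B, and they lay apart in size. Sdf2l1 had the lowest log2 fold change of the 10 at -2.46, a 5.49-fold difference (adjusted p = 4.88e-15), in the authors' deposited table. Its product is found in a complex with ERdj3, the J-domain protein encoded by Dnajb11. For Dnajb11 the difference in the authors' deposited table was 2.33-fold (log2 -1.22, adjusted p = 6.75e-07).

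The disulfide isomerases were split in size. Pdia4, which encodes ERp72, differed 3.97-fold (log2 -1.99, adjusted p = 5.96e-12) and Pdia6, which encodes the isomerase P5, 2.18-fold (log2 -1.12, adjusted p = 4.12e-07) in the authors' deposited table. Pdia3 encodes ERp57, the partner of calnexin and calreticulin, and differed 1.92-fold (log2 -0.94, adjusted p = 9.36e-05). The lectin chaperones lay beside it in the authors' deposited table, with Canx at 1.98-fold (log2 -0.99, adjusted p = 0.000288) and Calr at 1.95-fold (log2 -0.96, adjusted p = 0.000142), also with more RNA in set B. The 3 genes of the calnexin and calreticulin cycle held the last 3 places of the 10, each between 10.2% and 11.4% from the low end of all genes tested. All 3 fell short of a 2-fold difference.

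Members with and without an exact element in this window overlapped in the size of their difference. In the authors' deposited table, the 5 members with an element ranged from -2.34 for Hspa5 to -0.96 for Calr, and Sdf2l1, with no match, stood at -2.46. Hsp90b1, with 2 exact elements, stood at -1.42. With 9 genes chosen by name, no relation was tested.

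An exact ER stress element was then used to pick genes from the whole table, whatever their function. A promoter window could be matched to 11163 of the 14114 genes tested (79.1%), and 17.6% of these were called higher in set B. Among the 20 genes tested with an exact element, the authors' deposited table had 10 called higher in set B, 3 called higher in set A and 7 not called, with a median log2 fold change of -0.81. Without the 5 members, 5 of the other 15 (33.3%) were called in the direction of set B and 3 in that of set A, with a median of -0.24. The 5 were Derl3 at -2.83, Creld2 at -2.35, Acnat2 at -1.38, Dnajc3 at -1.36 and Syvn1 at -1.32 in the authors' deposited table (highest adjusted p = 3.12e-06). Derl3 and Syvn1 act in ER-associated degradation, Dnajc3 is a J-domain partner of BiP, Creld2 is an ER protein known to be induced by ER stress, and Acnat2 is an acyltransferase of fatty acid metabolism. The 3 were Xlr3a at 2.18, Acacb at 1.46, the acetyl-CoA carboxylase of mitochondria, and Pan2 at 0.70, a deadenylase subunit, in the authors' deposited table (highest adjusted p = 0.0341). Xlr3a has near-identical copies that can share reads, and its value is uncertain. As genes with an element, Acnat2, Dnajc3, Syvn1 and Pan2 were named after their values were seen.

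**Figure D3:**
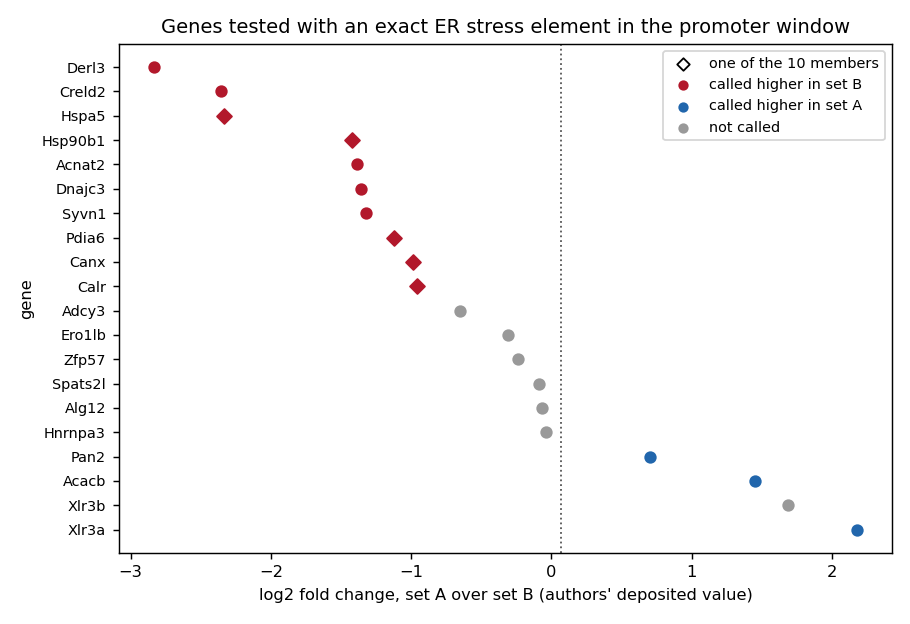
Deposited log2 fold change (ly_A over ly_B, horizontal axis) of the 20 genes tested with an exact ER stress element in their promoter window, 1 gene per line. Diamonds are the 5 members, red marks genes called higher in set B, blue those called higher in set A and grey those not called, and the dotted line is the median of all genes tested. The 10 red points have the lowest values, and the 3 blue points lie at 0.70 and above.

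With 1 mismatch allowed, 249 genes other than the members had a match, and the authors' deposited table had 66 of them (26.5%) called in the direction of set B and 40 in that of set A. The XBP1 site was held by 113 genes tested, with 32 (28.3%) called towards set B and 15 towards set A. The cyclic AMP response element was held by 375, with 59 (15.7%) called towards set B and 63 towards set A. Of the 8 genes tested with an exact element II, the authors' deposited table had Dnajb11 alone called towards set B and 2 called towards set A. Without Dnajb11, a member, 0 of the other 7 were called towards set B, and 5 were not called. Of all genes with a promoter window, 17.6% were called towards set B. These shares were not tested against each other or against all genes.

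The HSP70 and HSP90 relatives named here from outside the ER mostly had more RNA in set B too. Each had a value nearer to 0 than its counterpart in the ER. In the authors' deposited table, Hspa8, the HSP70 of the cytosol, stood at -0.72 (adjusted p = 0.0034) and Hspa9, the HSP70 of mitochondria, at -1.20 (adjusted p = 7.71e-05), beside -2.34 for Hspa5. Of the cytosolic HSP90 genes, Hsp90ab1 stood at -0.84 (adjusted p = 0.000316) and Hsp90aa1 at -1.18 (adjusted p = 0.000428), beside -1.42 for Hsp90b1, in the authors' deposited table. Trap1, the HSP90 of mitochondria, was not called (log2 0.07, adjusted p = 0.784). Hsph1, a cytosolic relative of Hyou1, stood at -1.49 (adjusted p = 0.000596), beside -2.43 for Hyou1. Sdf2, a paralog of Sdf2l1 that is counted below with the BiP partners, was called in the opposite direction in the authors' deposited table. It had 1.48-fold more RNA in set A (log2 0.57, adjusted p = 0.00672). The differences between relatives were not tested.

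The counts of the lists that follow stand beside 17.7% of all genes tested called towards set B and 18.1% called towards set A. Of 15 cytosolic chaperones, the authors' deposited table had 11 called towards set B (73.3%) and 0 towards set A, with a median log2 fold change of -0.88. Dnajb1, a heat-inducible J-domain protein of the cytosol, stood at -1.43 (adjusted p = 1.96e-05). Of 10 mitochondrial chaperones and proteases, 3 were called towards set B and 2 towards set A, with a median of -0.07, and the latter share, 2 of 10, is near that of all genes. The 2 were the protease genes Clpx at 0.98 and Clpp at 0.73 in the authors' deposited table (highest adjusted p = 0.000566).

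The list of other BiP partners includes Creld1 and Creld2, and binding to BiP was not examined here. Of its 10 genes, the authors' deposited table had 5 called towards set B and 2 towards set A, with a median of -0.40. The 2 of 10 are again near the share of all genes called towards set A. Besides Creld2, the largest differences among those called belonged to Manf, an ER protein that binds BiP, at -2.01 (adjusted p = 4.53e-19), and Dnajb9, a J-domain protein, at -1.45 (adjusted p = 7.84e-11). Sil1, which like Hyou1 exchanges nucleotide on BiP, was called towards set A at 0.61 (adjusted p = 0.00827), as was Sdf2.

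Of 14 other members of the disulfide isomerase family that were tested, the authors' deposited table had 4 called towards set B, 1 towards set A and 9 not called, with a median of -0.27 (28.6% towards set B). Dnajc10, which encodes the reductase ERdj5, stood at -1.63 (adjusted p = 6.89e-17), Txndc5 at -0.80 (adjusted p = 0.000302) and P4hb, which encodes the classical isomerase PDI, at -0.66 (adjusted p = 0.00155). Txndc16 was called towards set A at 1.40 (adjusted p = 0.000565). Of 9 genes of disulfide oxidation and related redox reactions in the ER, 2 were called towards set B and 0 towards set A, with a median of -0.31, and 22.2% towards set B is near the share of all genes. They were Ero1l, the oxidase that recharges PDI, at -1.59 (adjusted p = 7.69e-12), and Vkorc1l1, a vitamin K epoxide reductase, at -0.57 (adjusted p = 0.0392) in the authors' deposited table. The paralog Ero1lb, which held an exact ER stress element and is named for that, was not called (log2 -0.31, adjusted p = 0.213).

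In glycan trimming and the calnexin cycle, the authors' deposited table had 3 of 8 other genes called towards set B and 1 towards set A, with a median of -0.61. Mlec, a lectin for newly added glycans, stood at -1.19 and Mogs, the glucosidase that starts trimming, at -1.18 (highest adjusted p = 2.21e-07). Calr3, a relative of Calr known from testis, was called towards set A at 1.60 (adjusted p = 0.0127), a call that ended at an adjusted p under 0.01. Of 9 genes of prolyl isomerases and the collagen chaperone, 2 were called towards set B and 2 towards set A (22.2% each), with a median of -0.42, and both shares are near those of all genes. Fkbp11 stood at -1.09 (adjusted p = 0.00223), Fkbp7 at 0.98 (adjusted p = 0.042) and Fkbp2 at 0.96 (adjusted p = 0.00112) in the authors' deposited table.

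Genes that bring chains into the ER and glycosylate them were called towards set B wherever they were called. Of 16 translocon and signal peptidase genes, the authors' deposited table had 9 called towards set B and 0 towards set A, with a median of -0.56. Ssr3 at -1.19, the signal recognition particle receptor Srpr at -1.18 and the channel subunit Sec61a1 at -1.08 had the largest differences (highest adjusted p = 0.000148). Of 12 oligosaccharyltransferase subunits, 6 were called towards set B and 0 towards set A, with a median of -0.54. Ostc stood at -1.27, Ost4 at -1.10 and the catalytic subunit Stt3a at -1.06 in the authors' deposited table (highest adjusted p = 0.00185). None of the 3 KDEL receptor genes, whose products return ER residents from the Golgi, was called. Kdelr3 stood at -1.93 (adjusted p = 0.0517) and Kdelr2 at -0.34 (adjusted p = 0.124) in the authors' deposited table.

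In the authors' deposited table, all 7 genes of the stress sensors and their transcription factors were called towards set B, with a median of -1.30. Ddit3, which encodes CHOP, stood at -2.39, Ern1, which encodes IRE1, at -1.83 and Eif2ak3, which encodes PERK, at -1.47 (highest adjusted p = 3.58e-08). Over these 11 lists, the authors' deposited table had 52 of 113 genes (46%) called towards set B and 8 (7.08%) towards set A, beside 17.7% and 18.1% of all genes tested. Like the members, the lists were chosen with results of these data known.

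**Figure D4:**
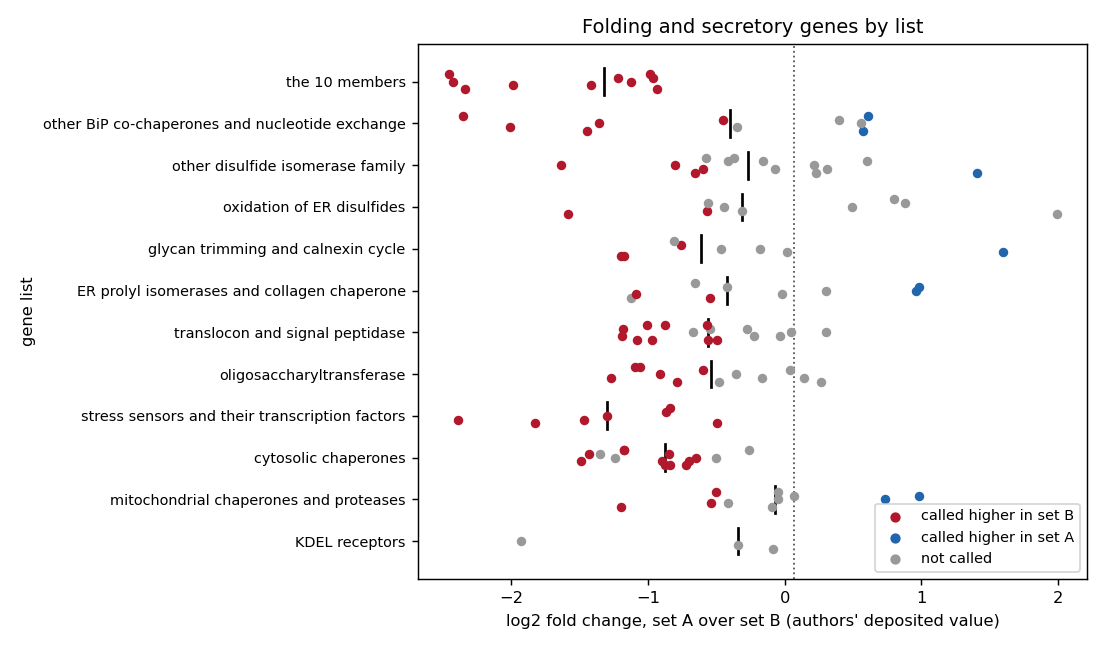
Deposited log2 fold change (ly_A over ly_B, horizontal axis) of the genes tested in each list, 1 point per gene, with the list's median as a black bar and the median of all genes tested as a dotted line. Red points were called higher in set B, blue points higher in set A, and grey points were not called. All points of the members and of the stress sensors are red, while the BiP partners, isomerases, calnexin cycle, prolyl isomerases and mitochondrial genes hold both colours.

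Some marker genes of cell types were called between the sets too, and their part in the members' difference was not tested. Their counts stand beside 17.7% of all genes tested called towards set B and 18.1% called towards set A. Of 9 hepatocyte markers tested, the authors' deposited table had 4 called towards set A (44.4%), 0 towards set B and 5 not called. Apoa2 at 1.40, Apoa1 at 1.22 and transthyretin, Ttr, at 1.07, all encoding secreted cargo, had the largest differences (highest adjusted p = 0.00029). The remaining marker called towards set A was Asgr1, a receptor gene and not one of secreted cargo, at 0.64 (adjusted p = 0.00243). Other genes of secreted cargo, Alb at 0.19, Serpina1a at 0.63 and Fgb at -0.22, were not called. Cps1 at -0.52 and Hnf4a at -0.05 were not called either. Of 7 markers tested for plasma cells, another cell type rich in ER, 1 was called towards set B and 1 towards set A (14.3% each). Both shares are near those of all genes. The former was Derl3, which also holds an exact ER stress element, and the latter was the B cell gene Cd79a at 1.62 (adjusted p = 0.0133) in the authors' deposited table. Of the 5 not called, Mzb1 at 1.55, Irf4 at 1.36, Pou2af1 at 0.54 and Jchain at 0.44 leaned towards set A. Sdc1 at -0.32 leaned the other way. Of the pancreatic acinar markers, Cela1 and Cela2a alone were tested, and both were called towards set A, at 0.98 and 2.59 (highest adjusted p = 0.0312). Of 7 macrophage markers, 2 were called towards set A (28.6%) and 1 towards set B (14.3%), the latter near the share of all genes. Clec4f stood at 2.63, Itgam at -2.14 and Csf1r at 1.10 in the authors' deposited table (highest adjusted p = 0.00181). Of 7 fibroblast and stellate cell markers, Pdgfrb alone was called, at -0.67 (adjusted p = 0.00842). This share, 14.3% towards set B, is near that of all genes. Of the 6 not called, Lrat stood at -0.81 (adjusted p = 0.0652), Col1a1 at -0.66 and Col1a2 at -0.35 in the authors' deposited table. Acta2 at 1.22, Dcn at 0.36 and Col3a1 at 0.15 had the opposite sign. Levels of these markers were not used, so the labelled tissue was not checked by level.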

How the data were processed

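The deposited data were 1 table of the authors' comparison of 2 sets of 3 liver RNA-seq libraries. Per the submitters' processing notes, DESeq2 (no version) and the mouse build mm9 were used. Aligner, counter and gene models: not given in the sources used here. Per the file headers, the authors deposited a log2 fold change, a p-value and an adjusted p-value for each gene symbol, and these 3 columns were read. The 18 library columns were left out, since their names match no label, so no depth, standard deviation or test of single genes was computed from them. The labels number the mice libraries as replicates and say no more of their origin. The deposited p-values set the difference between the 2 sets against the spread between libraries within a set.

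An adjusted p of 1 stood in 2312 rows, which count as not tested. Over the remaining 14114 the authors' adjusted p-value matched a recomputed Benjamini-Hochberg value to a relative difference of 9.47e-13. Called means an adjusted p under 0.05, and the direction is that of the sign. Lists are described by counts and medians only. The members and lists were chosen with earlier results of these data known.

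Named genes are the members, fixed relatives, the 3 called genes of each list with the largest difference, up to 3 called against the list's majority, and the 2 with the smallest p where fewer than 2 were called. Among genes with an exact element the rule names the 5 called genes with the largest difference. Motifs were searched in RefSeq promoter windows (GRCm38.p6) matched by symbol, for 157 genes by an older symbol. Adjustment and motif search were tested on simulated data. A planned search for C-terminal retrieval signals was not run. Alternatives were a stricter adjusted p, limits on fold, an adjustment over all rows, and a looser or shorter motif search. Python 3.11.15, numpy 2.4.6, pandas 2.3.3 and matplotlib 3.10.9 were used.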

Additional observations from a re-analysis of the deposited data

How the results depend on the processing

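All 10 members kept their call at the 0.01 threshold and when the deposited p-values were adjusted over all 16426 rows. When 2-fold was also required, 7 were called, and the calls of Calr, Canx and Pdia3 ended. At 1.5-fold all 10 passed, and at 3-fold 4 did. Over the 11 other lists, 52 genes were called towards set B and 8 towards set A. These counts were 39 and 6 at the 0.01 threshold, 25 and 2 when 2-fold was also required, and 51 and 8 with the adjustment over all rows. An exact ER stress element stood in 5 members over the whole window and over the 250 bases before the start alone, and 7 had one with 1 mismatch allowed.

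No paired analysis was possible because the 3 columns of the authors' comparison alone were read. The library columns match no labelled sample by name and were left out by choice, so a paired fit was not run. For the same reason leaving out single libraries, another normalisation, another tool and a filter on low counts were not run. The search for retrieval signals at protein ends was not run, since no protein sequences were used here. How far a single library carries any of these differences was not examined.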
